A study of Mus musculus with 383 samples.

Results

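Ephrins, their Eph receptors, semaphorins, plexins and neuropilins are the contact and guidance genes of single mouse skin tumour cells. Members were all genes of the count table whose symbol began with Epha, Ephb, Efna, Efnb, Sema or Plxna to Plxnd, together with Nrp1 and Nrp2, leaving out antisense and pseudogene symbols. This gave 53 of 49585 genes: 5 ephrin-A, 3 ephrin-B, 9 EphA, 5 EphB, 20 semaphorin, 9 plexin and 2 neuropilin genes. The tumours were squamous cell carcinomas of the skin in mice that carried Lgr5CreER, p53fl/fl and Rosa26-YFP+/+ among their alleles, so every cell compared here came from tissue with an inducible Cre driven by Lgr5, a marker of hair follicle stem cells, floxed p53 and a YFP reporter. YFP-positive cells were sorted by surface Epcam, an epithelial adhesion protein, into 70 positive and 310 negative single cells, and their full-length cDNA was sequenced by Smart-seq2. The comparison asks which guidance genes differ between tumour cells with and without this epithelial surface protein. The labels name no animal, so each population counts as 1 sample, no test between populations was possible, and the intervals given below cover counting error only.

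Ephrins are ligands held at the cell surface, the A class by a lipid anchor and the B class by a transmembrane segment, and they signal at cell contacts through Eph receptor tyrosine kinases, with signalling also back into the ligand-bearing cell. Semaphorins are secreted or membrane-bound ligands of plexins, and the secreted class 3 members mostly bind through the co-receptors Nrp1 and Nrp2, which also bind growth factors of the VEGF family. These systems are best known for steering axons and vessels, and in skin the EphA2 receptor and ephrin-A1 are established regulators of keratinocyte contacts and differentiation.

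After filtering, 62 of the 70 positive cells remained, and 47 of the 310 negative cells were left out. The kept cells had 109743 to 730528 and 104330 to 900492 gene reads each, with medians of 413142 and 414731. Levels are counts per 1000000 gene reads (CPM) summed over the cells of a population, from totals of 24840769 and 107313931 reads, and a pair of values always gives the Epcam-positive population before the Epcam-negative one. Epcam itself stood at 1069 and 22.7 CPM, the basal keratin gene Krt14 at 13311 and 1836 CPM, and the mesenchymal filament gene Vim at 592 and 5809 CPM. The Epcam transcript went against the gate in 2 Epcam-positive cells, which lacked it, and in 10 Epcam-negative cells, which had it; the 15 members that differed by 2-fold or more did so without these cells too. Population and plate row cannot be told apart, since Epcam-positive cells sat in other rows than Epcam-negative cells, but plate columns 1 to 12 and 13 to 24 each held both. No 2 wells had identical counts.

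Of the 53 members, 28 reached 10 CPM in at least 1 population and are called measured. The ratio of a gene is the log2 of its Epcam-negative CPM plus 1 over its Epcam-positive CPM plus 1. A negative value means a higher level in Epcam-positive cells, and the added 1 CPM understates the difference of low genes. Sema3a, Epha3, Sema4f, Nrp1, Sema3d, Nrp2, Sema5a and Plxna2 exceeded 2-fold toward the Epcam-negative side, 8 of 28 or 28.6%, beside 15.3% of all 9574 genes measured by the same rule. Sema4d, Efna1, Epha1, Plxnb1, Efnb1, Epha2 and Sema4b exceeded 2-fold toward the Epcam-positive side, 7 of 28 or 25%, beside 12.9% of all measured genes. The other 13 differed by less than 2-fold. Scaled by spike-in reads in place of gene reads, the split was 6 and 9 members, beside 11.1% and 23.02% of all genes. The median ratio of the 28 was -0.22. The medians of their lower and upper counting limits were -0.30 and -0.11, which are not an interval of that median. The median ratio of all measured genes was -0.08. The family as a whole thus showed no common direction, and its members went both ways.

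**Figure D1:**
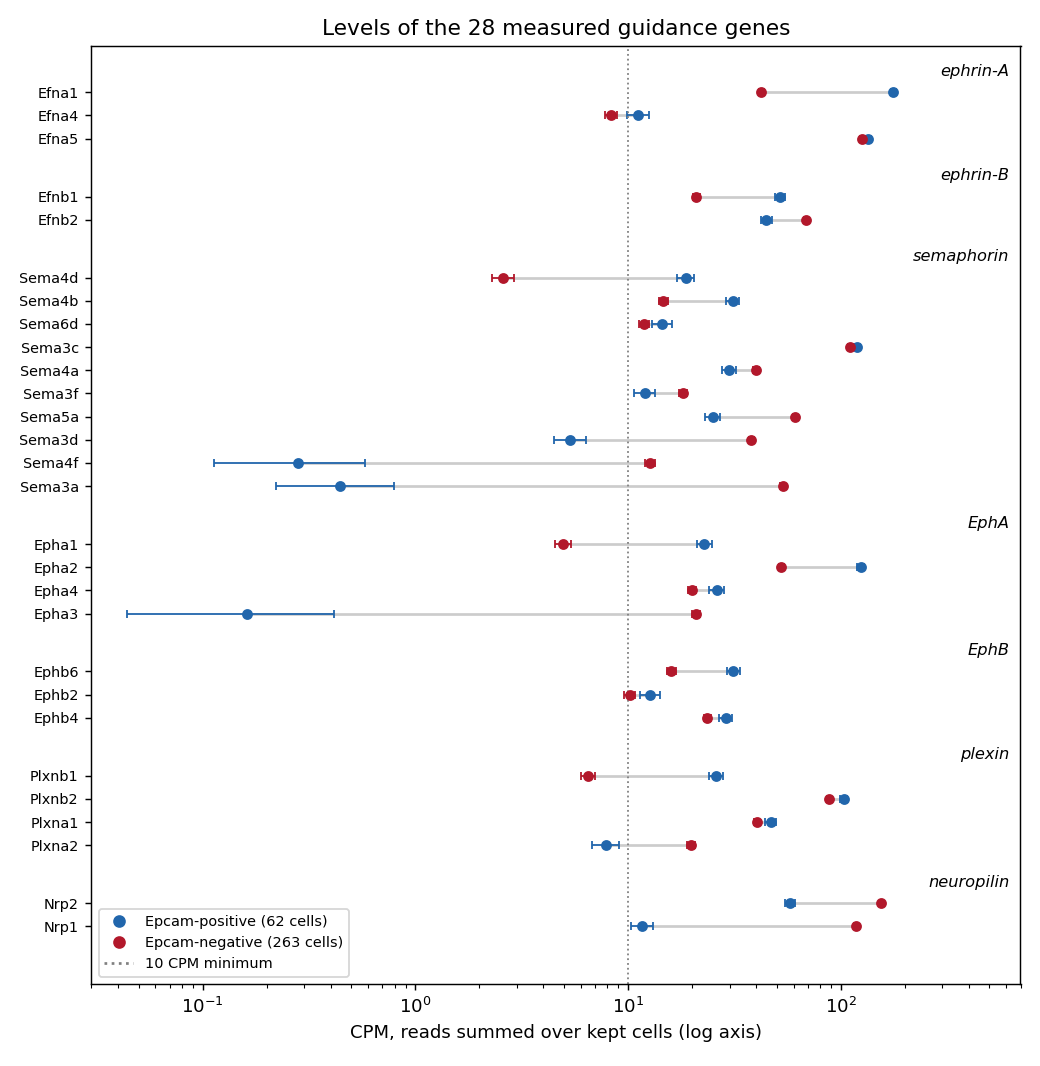
Levels of the 28 measured members in CPM on a log axis, with Epcam-positive cells in blue and Epcam-negative cells in red, grouped by class; bars are exact 95% Poisson intervals and the dotted line is the 10 CPM minimum. Efna1, Epha1, Plxnb1 and Sema4d have the blue point far to the right, while Sema3a, Epha3, Sema4f, Sema3d and Nrp1 have the red point far to the right.

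Among the ephrin-A ligands, Efna1, which encodes ephrin-A1, was the one that differed. Its level was 176.7 and 42.3 CPM, a ratio of -2.04 (-2.10 to -1.98). Single Epcam-positive cells ranged from 0 to 1546 CPM with a median of 88.3, and Epcam-negative cells from 0 to 4497 CPM with a median of 0. The ranges overlapped, and the cell with the highest level of all was Epcam-negative and held 19.2% of that population's Efna1 reads. The ratio was -2.53 within plate columns 1 to 12 and -1.39 within columns 13 to 24. Efna5, a relative expressed at a like level in the 2 populations, stood at 133.7 and 125.4 CPM (ratio -0.09), with medians over cells of 89.8 and 70.8 CPM. Efna4 was at 11.2 and 8.35 CPM, a ratio of -0.38. The genes Efna1, Efna3 and Efna4 lie within 1 stretch of chromosome 3, 32.8 kb and 52.2 kb from Efna1, in the GENCODE vM21 annotation of the mouse build GRCm38. Efna3, at 7.17 and 0.103 CPM, was below the minimum but lay on the same side as Efna1.

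The 2 measured ephrin-B ligands leaned in opposite directions. Efnb1, whose product binds EphB receptors and guides boundary formation, was at 51.6 and 20.98 CPM, a ratio of -1.26 (-1.36 to -1.16). Its median cell held 45.3 and 3.54 CPM. Efnb2, the ligand best known from the arterial endothelium, was at 44.6 and 68.5 CPM, a ratio of 0.61 (0.52 to 0.70). A single cell held 20.7% of the Efnb2 reads of the Epcam-positive population, and without the top cell of each population the ratio was 0.87. The median cell was at 3.36 and 23.3 CPM.

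Class 3 semaphorins, the secreted members, held the largest difference among the measured members. Sema3a, the classical repellent for axons that acts through Nrp1, had 11 reads in all Epcam-positive cells and 5713 reads in Epcam-negative cells, 0.443 and 53.2 CPM, a ratio of 5.23 (4.92 to 5.47). No Epcam-positive cell exceeded 17.4 CPM, whereas Epcam-negative cells ranged from 0 to 722 CPM with a median of 3.89 and an upper quartile of 52.2. Sema3a was thus nearly absent on the epithelial side and unevenly spread among Epcam-negative cells. Sema3d, its neighbour on chromosome 5, was at 5.35 and 38.02 CPM, a ratio of 2.62 (2.40 to 2.84). Of the few Epcam-positive reads of these genes, 45.5% for Sema3a, 42.9% for Sema3d and 75% for Epha3 came from 1 cell, the Epcam-positive cell with the most Col1a1 reads; it also held 71 Epcam reads and 943 Vim reads.

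Sema3c, which can signal through either neuropilin, was the most abundant semaphorin per kilobase of exon on both sides. It stood at 119.3 and 110.2 CPM, a ratio of -0.11 (-0.17 to -0.06). Its distribution over cells was less alike than its sum: the median cells held 58.1 and 6.35 CPM, and the highest cells 546 and 2544 CPM. Sema3f, a ligand of Nrp2, was at 11.96 and 18.2 CPM (ratio 0.57). Sema3b had no read in Epcam-positive cells and 519 reads, 4.84 CPM, in Epcam-negative cells; with 3 reads over the Epcam-positive population as a floor this is at least 40.05-fold higher, although below the 10 CPM minimum. Sema3e was at 2.34 and 6.38 CPM.

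Sema3a, Sema3d and Sema3e lie in a row on chromosome 5 (Sema3d chr5:12383385-12588948, Sema3a chr5:13125414-13602565, Sema3e chr5:14025276-14256689), with gaps of 536 kb and 423 kb. Their ratios were 2.62, 5.23 and 1.15, all toward the Epcam-negative side. The RefSeq promoters of Sema3a and Sema3d are shown because these neighbours differed in the same direction. Each runs 5′ to 3′ on the plus strand from 250 bases before to 50 bases after the annotated start, in build GRCm38.p6, with any E2-box (CAGGTG or its reverse complement CACCTG) in capitals. That motif is bound by factors of the Snail and Zeb families. Snai1 stood at 0.725 and 58.5 CPM here and Zeb1 at 1.25 and 48.6 CPM. Binding was not measured, and a part of these factors in the differences was not tested.
Sema3a, chr5:13396534-13396833: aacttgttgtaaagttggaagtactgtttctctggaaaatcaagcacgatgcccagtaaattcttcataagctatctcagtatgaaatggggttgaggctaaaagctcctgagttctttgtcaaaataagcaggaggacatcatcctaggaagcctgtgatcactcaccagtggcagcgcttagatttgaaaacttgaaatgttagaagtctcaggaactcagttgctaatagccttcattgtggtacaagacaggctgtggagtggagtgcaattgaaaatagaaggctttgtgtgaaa
Sema3d, chr5:12382916-12383215: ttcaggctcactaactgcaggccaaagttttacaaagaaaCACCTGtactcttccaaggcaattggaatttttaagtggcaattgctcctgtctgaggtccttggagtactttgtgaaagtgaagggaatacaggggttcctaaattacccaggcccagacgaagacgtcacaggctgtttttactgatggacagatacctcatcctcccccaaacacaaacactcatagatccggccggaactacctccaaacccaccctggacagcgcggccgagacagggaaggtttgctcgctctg
The Sema3a window, whose start lies inside the GENCODE gene, held no match and was 41.3% G or C. The Sema3d window held 1 match, 210 bases before the start.

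Of the class 4 semaphorins, which are membrane-bound and mostly bind B-type plexins, 4 were measured and they split. Sema4f had 7 reads in Epcam-positive cells and 1365 in Epcam-negative cells, 0.282 and 12.7 CPM, a ratio of 3.42 (3.11 to 3.63). Sema4b was at 31.1 and 14.6 CPM, a ratio of -1.04 (-1.16 to -0.92). Sema4d, the ligand of plexin-B1, was at 18.6 and 2.58 CPM, a ratio of -2.46 (-2.63 to -2.28), the lowest among the measured members. That value was not stable over the plate: columns 1 to 12 gave -4.29, from 27.5 and 0.461 CPM, and columns 13 to 24 gave -0.30, from 7.12 and 5.58 CPM. A single cell held 49.5% of the Epcam-negative Sema4d reads, and without the top cell of each population the ratio was -2.84. Sema4a, known from immune cells and retina, was at 29.8 and 40.04 CPM (ratio 0.41).

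The Sema4f promoter is shown, on the minus strand, since it was the only window of the measured members with 2 E2-box matches, again in capitals, at 110 and 89 bases before the start.
Sema4f, chr6:82939720-82940019: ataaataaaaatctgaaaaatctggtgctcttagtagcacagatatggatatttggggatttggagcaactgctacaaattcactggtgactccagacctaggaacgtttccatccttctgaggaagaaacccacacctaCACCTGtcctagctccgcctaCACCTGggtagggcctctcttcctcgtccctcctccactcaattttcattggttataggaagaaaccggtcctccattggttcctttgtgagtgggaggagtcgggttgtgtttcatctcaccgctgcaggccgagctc
Of 27025 genes with RefSeq promoters of this length, 22.6% held an E2-box on either strand in at least 1 promoter. Of the 26 measured members with a promoter in the table, 7 held one: 2 of the 8 genes higher in Epcam-negative cells, 1 of the 7 higher in Epcam-positive cells and 4 of the 11 others. The AP-1 motif (TGANTCA, both strands) stood in a promoter of 8.97% of all genes and of 1 measured member, Sema4d. The GC box (GGGCGG, both strands) stood in a promoter of 38.2% of all genes and of 19 of the 26 members. Genes with several promoters count once, and the 26 members had 35 promoters.

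Sema5a, a transmembrane semaphorin with thrombospondin repeats, was at 25.04 and 60.8 CPM, a ratio of 1.25, and the ratio was 1.25 in each set of plate columns. Sema6d was at 14.5 and 11.8 CPM, a ratio of -0.27 whose direction changed over the plate, from 1.17 in columns 1 to 12 to -1.47 in columns 13 to 24. A single cell held 33.2% of its Epcam-positive reads.

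On the receptor side, the EphA genes had members on either end. Epha2, the main ephrin-A receptor of keratinocytes, was at 123.99 and 52.6 CPM, a ratio of -1.22 (-1.28 to -1.16). Epcam-positive cells ranged from 0 to 572 CPM with a median of 78.1, and Epcam-negative cells from 0 to 576 CPM with a median of 22.5, so the ranges were nearly the same while the middle of the distribution was lower. Epha1, a receptor of epithelia, was at 22.8 and 4.93 CPM, a ratio of -2.01 (-2.16 to -1.85). Epha3, a receptor better known from mesenchyme and neurons, had 4 reads in Epcam-positive and 2234 reads in Epcam-negative cells, 0.161 and 20.8 CPM, a ratio of 4.23 (3.95 to 4.39). Epha4 was at 26.1 and 20.1 CPM (ratio -0.36).

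Epha1 shares 6.01% of its exon bases with Zyx on the opposite strand, and whether the counting used strand is not known here. Zyx, which encodes a focal adhesion protein, was at 117.8 and 275.1 CPM, so its level lay on the other side from that of Epha1. The RefSeq promoter of Epha1 on the minus strand held the single E2-box found among the 7 genes higher in Epcam-positive cells, 71 bases before the start, and is shown for that reason with the match in capitals.
Epha1, chr6:42373219-42373518: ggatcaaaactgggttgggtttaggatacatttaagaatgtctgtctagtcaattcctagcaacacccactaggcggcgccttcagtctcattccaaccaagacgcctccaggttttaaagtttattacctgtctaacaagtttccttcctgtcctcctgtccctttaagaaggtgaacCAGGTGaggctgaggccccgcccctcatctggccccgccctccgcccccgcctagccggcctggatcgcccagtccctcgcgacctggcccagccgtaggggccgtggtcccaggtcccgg

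None of the 3 measured EphB genes reached 2-fold. Ephb6, a receptor without kinase activity, had 776 and 1717 reads, 8.28 and 4.24 CPM per kb (ratio -0.92, from -1.04 to -0.80). Its cells ranged from 0 to 258.7 CPM with a median of 3.29 in the Epcam-positive population and from 0 to 409.6 CPM with a median of 0 in the other, so the ranges overlapped. Ephb4, the receptor of ephrin-B2, was at 28.8 and 23.6 CPM, and its ratio of -0.28 was -0.68 among plate columns 1 to 12 and 0.47 among columns 13 to 24. Ephb4 cells ranged from 0 to 420.7 CPM (median 11.7) and from 0 to 325 CPM (median 3.05). Ephb2 was at 12.7 and 10.2 CPM (ratio -0.29), and 1 cell held 27.6% of its Epcam-positive reads. Ephb1, with 220 reads against 3 (8.86 and 0.028 CPM), and Ephb3, at 6.76 and 9.85 CPM, stayed below the minimum. A single cell held 52.7% of the Epcam-positive Ephb1 reads, and without it the level was 4.25 CPM.

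Nrp1 and Nrp2, the co-receptors of class 3 semaphorins, were both higher in Epcam-negative cells. Nrp1 was at 11.7 and 117.6 CPM, a ratio of 3.23 (3.07 to 3.39). Single Epcam-positive cells ranged from 0 to 510 CPM with a median and upper quartile of 0, and Epcam-negative cells from 0 to 2020 CPM with a median of 38.3. A single Epcam-positive cell held 55.2% of that population's Nrp1 reads, and without the top cell of each population the ratio was 4.13. Columns 1 to 12 of the plate gave 4.56 and columns 13 to 24 gave 2.33. Nrp2 was at 57.9 and 154.6 CPM, a ratio of 1.40 (1.32 to 1.48), with medians over cells of 25.8 and 91.03 CPM and highest cells of 532 and 2022 CPM. Summed per kilobase of exon, the neuropilins went from 6.08 to 25.1 CPM per kb, 4.12 times as much.

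Summed per kilobase, the plexins differed less than the neuropilins, at 22.2 and 19.5 CPM per kb, although Plxnb1 differed by more than Nrp2. Plxnb2, the most abundant plexin per kilobase on both sides, was at 103.4 and 87.8 CPM (ratio -0.23), with medians over cells of 79.4 and 56.4 CPM and highest cells of 389 and 575 CPM. Plxnb1, the receptor of Sema4d, was at 26.01 and 6.47 CPM, a ratio of -1.85 (-1.998 to -1.711). Plxna1, which pairs with neuropilins, was at 46.9 and 40.3 CPM (ratio -0.22). Plxna2, another partner of neuropilins, was at 7.85 and 19.8 CPM, a ratio of 1.24 (1.05 to 1.43) that was 2.91 among plate columns 1 to 12 and 0.36 among columns 13 to 24.

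Below the minimum lay 25 members, with levels up to 8.86 CPM (Ephb1) in Epcam-positive and 9.85 CPM (Ephb3) in Epcam-negative cells. They were Efna2, Efna3, Efnb3, Epha5, Epha6, Epha7, Epha8, Epha10, Ephb1, Ephb3, Sema3b, Sema3e, Sema3g, Sema4c, Sema4g, Sema5b, Sema6a, Sema6b, Sema6c, Sema7a, Plxna3, Plxna4, Plxnb3, Plxnc1 and Plxnd1. Epha5, Epha6, Epha8 and Sema3g had no read in either population, which at 3 reads allows up to 0.121 and 0.028 CPM. Plxnd1, the receptor of Sema3e, was at 0.523 and 7.25 CPM, and Sema6a at 2.21 and 6.84 CPM; 1 cell held 76.9% of the Epcam-positive reads of Plxnd1 and 52.7% of those of Sema6a.

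Levels per kilobase of exon showed which relative made up most of each class. Among ephrin-A genes, Efna1 made up 68.8% of the summed level in Epcam-positive cells and 38.1% in Epcam-negative cells, and Efna5 23.6% and 51.2%, so their order changed. The ephrin-B order changed likewise, with Efnb1 at 67.9% and 37.7% and Efnb2 at 29.5% and 62.1%. The sum of the ephrin-A genes was 140 and 60.7 CPM per kb, whereas that of the ephrin-B genes was 22.03 and 16.1 CPM per kb. Epha2 led the EphA genes on both sides, at 73.4% and 64.05%, while Epha1 went from 16.1% to 7.15% and Epha3 from 0.0513% to 13.6%. Among class 3 semaphorins, Sema3c made up 83.9% and 53.4%, Sema3d 3.13% and 15.3%, and Sema3a 0.160% and 13.3%. Nrp1 made up 19.6% of the neuropilin level in Epcam-positive cells and 47.9% in Epcam-negative cells.

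**Figure D2:**
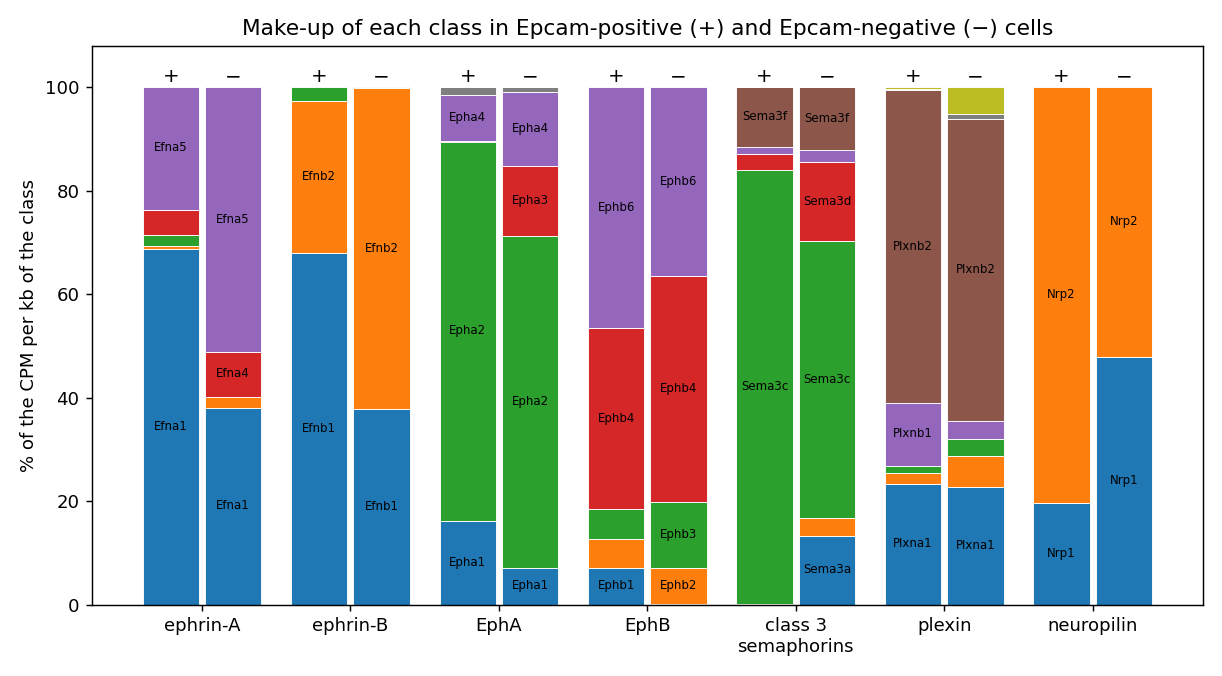
Share of each member, in percent, in the summed CPM per kb of its class in Epcam-positive (+) and Epcam-negative (−) cells; members under 6% carry no name. The leading ephrin-A gene is Efna1 on the left bar and Efna5 on the right, and the leading ephrin-B gene Efnb1 and then Efnb2, while Epha2, Sema3c, Plxnb2 and Nrp2 lead on both bars.

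To compare single cells at equal depth, each was thinned to 100000 gene reads, and presence meant at least 5 of these reads, the equivalent of 50 CPM. For scale, Col1a1, a gene higher in Epcam-negative cells, was present in 4.84% of Epcam-positive cells. Epcam was present in 3.80% of Epcam-negative cells. Efna1 was present in 42 of 62 Epcam-positive cells (67.7%, Clopper-Pearson interval 54.7 to 79.1%) and 46 Epcam-negative cells (17.5%, 13.1 to 22.6%). Epha2 was present in 75.8% (63.3 to 85.8%) and 34.6% (28.9 to 40.7%) of cells, and Efnb1 in 46.8% (33.98 to 59.9%) and 14.4% (10.4 to 19.3%).

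Sema3a was present in 0 of 62 Epcam-positive cells, with an interval of 0 to 5.78%, and in 67 Epcam-negative cells (25.5%, 20.3 to 31.2%). Epha3 was present in 0 and 28 cells and Sema4f in 0 and 17 cells. Nrp1 was present in 3 Epcam-positive cells (4.84%), the same share as Col1a1, and in 120 Epcam-negative cells (45.6%, 39.5 to 51.9%). The Col1a1 share gives a scale only, and no background share was measured. Nrp2 was present in 37.1% (25.2 to 50.3%) and 61.6% (55.4 to 67.5%) of cells. Efna5 (64.5% and 55.1%) and Plxnb2 (64.5% and 53.6%) were present in most cells of both populations. The share of Sema3d in Epcam-positive cells (4.84%) was no higher than that of Col1a1. The shares of Epha1 (2.28%) and Sema4d (0.760%) in Epcam-negative cells were below that of Epcam. A cell had a median of 7 members present (2 to 13) in the Epcam-positive and 6 (0 to 12) in the Epcam-negative population.

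**Figure D3:**
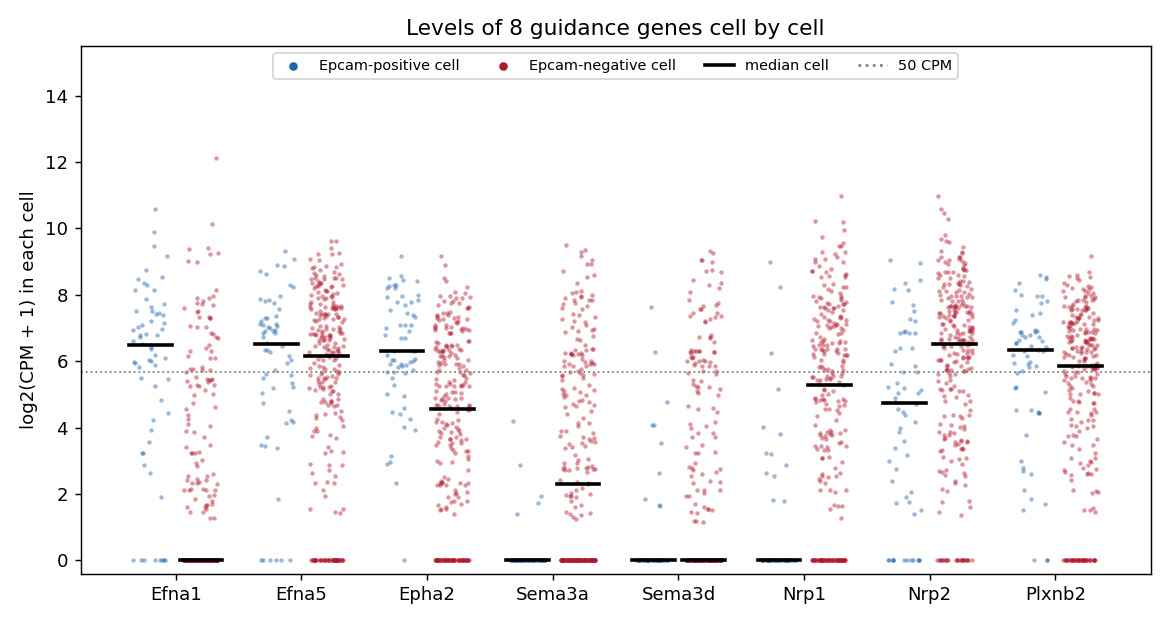
Level of 8 members in each cell as log2(CPM + 1), in Epcam-positive (blue) and Epcam-negative (red) cells; black lines are the median cell and the dotted line is 50 CPM. Efna1 and Epha2 have their median higher in blue, Nrp1 and Nrp2 higher in red, Efna5 and Plxnb2 nearly level, and Sema3a has no blue cell above 50 CPM.

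Looking at relatives within the same cell, Efna1 and Efna5 were present together in 27 Epcam-positive cells (43.5%) and 30 Epcam-negative cells (11.4%). Efna5 without Efna1 was found in 13 Epcam-positive cells (21.0%) and in 43.7% of Epcam-negative cells, the most frequent combination there. Neither was present in 11.3% and 38.8% of cells. For the neuropilins, 38 Epcam-positive cells (61.3%) had neither and 21 (33.9%) had Nrp2 alone. In Epcam-negative cells, 77 (29.3%) had both, 85 (32.3%) Nrp2 alone, 43 (16.3%) Nrp1 alone and 58 (22.1%) neither. Both were present in 2 Epcam-positive cells (3.23%). Nrp2 alone was thus about as frequent on the 2 sides, while the shares with both genes, with Nrp1 alone and with neither differed. Nrp2 with or without Nrp1 was present in 37.1% and 61.6% of cells, so it differed as well. Of the 28 Epcam-negative cells with Epha3, 9 also had Epha2 and none had Epha1. Epha2 was present in 34.6% of all Epcam-negative cells. Epha1 was present in only 6 of them (2.28%), too few to read a separation from.

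Among the class 3 ligands, Sema3c alone was present in 32 Epcam-positive cells (51.6%) and 49 Epcam-negative cells (18.6%). Of the 67 Epcam-negative cells with Sema3a, 37 had neither Sema3c nor Sema3d, 16 had Sema3c as well, 6 had Sema3d as well and 8 had all of them. Sema3c and Sema3d without Sema3a were found together in 27 Epcam-negative cells. The set of these ligands counted as present therefore varied among Epcam-negative cells. At this depth and presence rule, an absent transcript cannot be told apart from a missed one.

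**Figure D4:**
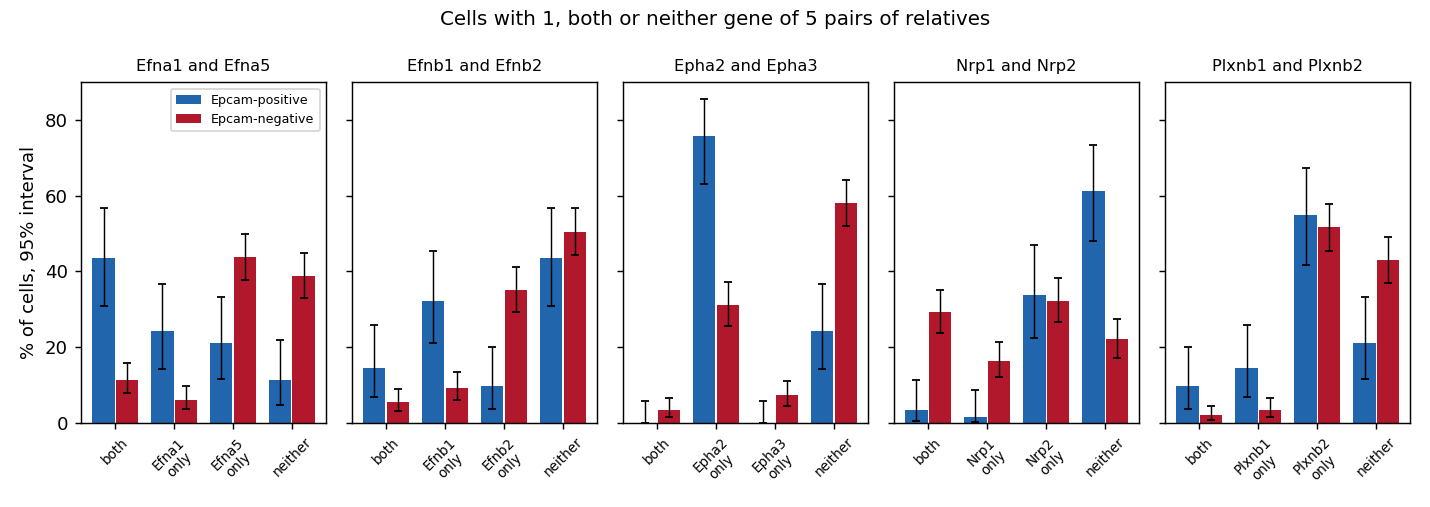
Percent of cells with both, 1 or neither gene of 5 pairs of relatives present, in Epcam-positive (blue) and Epcam-negative (red) cells, with exact 95% intervals over cells. For Efna1 and Efna5 the tallest blue bar is both genes and the tallest red bar is Efna5 only; for Nrp1 and Nrp2 the tallest blue bar is neither gene and the red bars for both genes and for Nrp2 only are close to each other.

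Ligands and receptors that bind each other were also looked for in the same cell, with the product of the single shares given as what unrelated presence would yield. Efna1 and Epha2 were present together in 33 Epcam-positive cells (53.2%, product 51.4%) and 22 Epcam-negative cells (8.37%, product 6.05%). Efna5 and Epha2 were together in 31 (50%, product 48.9%) and 70 cells (26.6%, product 19.1%). Sema3a and Nrp1 were together in no Epcam-positive cell and in 34 Epcam-negative cells (12.9%, product 11.6%). Sema3c and Nrp2 were together in 17 (27.4%, product 20.3%) and 68 cells (25.9%, product 23.4%). Sema4d and Plxnb1, both higher on the Epcam-positive side, were together in 1 Epcam-positive cell (1.61%, product 2.34%) and in no Epcam-negative cell (product 0.0405%). The interval of the Efna5 and Epha2 share in Epcam-negative cells, 21.4 to 32.4%, lay above its product. So did that of Efnb1 and Ephb4 there (13 cells, 4.94%, 2.66 to 8.30%, product 2.47%). The intervals of the other pairs named here that occurred together held their products. These intervals count cells of 1 sample and leave out the error of the product, so they are no test. Across the 28 pairs of members present in at least 30% of cells, Spearman rho over cells ran from -0.34 to 0.40 over the 62 Epcam-positive cells and from -0.10 to 0.36 over the kept Epcam-negative cells; cells share depth and dropout, and this is a description.

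Within the Epcam-negative population, 48.7% of cells had Krt14 present. Of the 46 cells with Efna1, 31 had Krt14 (11.8% of all cells, product 8.51%) and 8 were among the 10 cells with the Epcam transcript (3.04%, product 0.665%). Of the 67 cells with Sema3a, 22 had Krt14 (8.37%, product 12.4%) and none had Epcam, where the product gives 2.55 cells. Of the 120 cells with Nrp1, 49 had Krt14 (18.6%, product 22.2%), and 80 cells had Nrp2 and Krt14 (30.4%, product 29.98%). Cells with Efna1 therefore included most of the cells with remaining Epcam transcript, while for Sema3a the 10 such cells are too few to read a separation from a count of 0.

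Directions were compared between the 2 sets of plate columns, each with 31 Epcam-positive cells. All 15 members that differed by 2-fold or more had the same direction in both sets, and 11 of the 15 reached 2-fold in both. These 15 were picked by their ratio over both sets together, which favours a shared direction. Both sets also belong to the same sample of each population, so this is no replication. The exceptions were Sema4d, Plxna2, Epha2 (-1.42 and -0.99) and Sema4b (-0.99 and -1.13), of which the latter pair lay next to the 2-fold line.

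**Figure D5:**
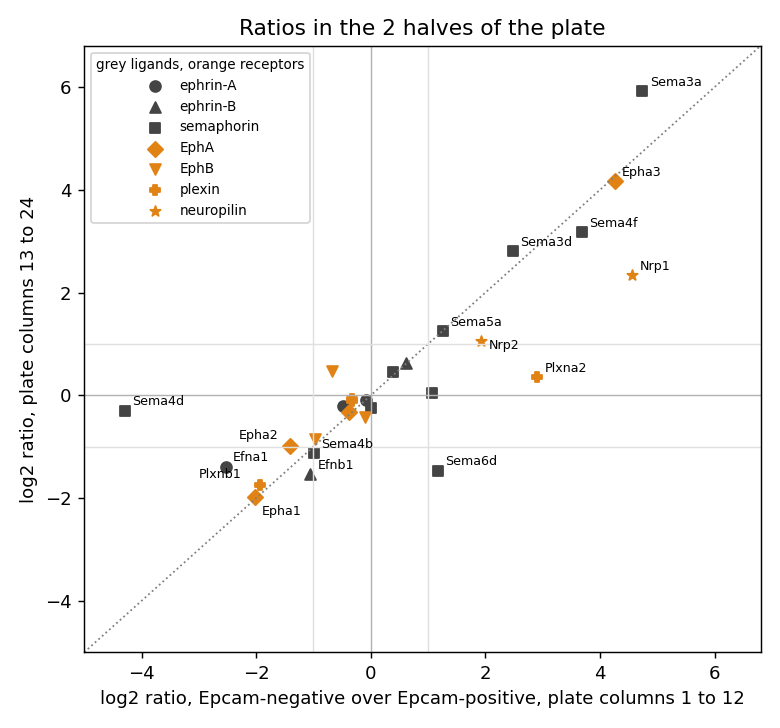
Log2 ratio of each measured member in plate columns 1 to 12 (x axis) against columns 13 to 24 (y axis), with ligands in grey and receptors in orange; the dotted line marks equal values and the pale lines 2-fold. Most named members lie near the dotted line, Sema4d, Plxna2 and Nrp1 lie away from it with the same sign on both axes, and Sema6d changes sign.

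Signalling partners were taken from fixed lists. Of 30 effectors and partners of ephrins and Eph receptors, 25 were measured, with a median ratio of 0.18. Of these, 5 (20%) passed 2-fold toward the Epcam-negative side and 2 (8%) toward the other, beside 15.3% and 12.9% of all measured genes, so the shares lay near those of all genes. The adaptor genes Grb10 (0.564 and 14.1 CPM, ratio 3.27), Dok1 (18.7 and 57.7 CPM, 1.57) and Nck1 (21.7 and 51.4 CPM, 1.20) and the Src-family kinase gene Fyn (5.27 and 25.96 CPM, 2.10) were the largest ratios toward the Epcam-negative side, with Abl1 at 1.18. The scaffold gene Grip1, whose product binds ephrin-B tails (13.97 and 1.39 CPM, -2.65), and the focal adhesion kinase gene Ptk2 (101.2 and 44.9 CPM, -1.16) were those on the other side.

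Of 35 effectors and partners of semaphorins and plexins, 24 were measured, with a median of 0.42. Of these, 5 (20.8%) and 3 (12.5%) passed 2-fold in the same order, beside 15.3% and 12.9% of all measured genes, again near the shares of all genes. Dpysl3, of the collapsin response mediator family that acts downstream of Sema3a, was at 49.2 and 461 CPM (ratio 3.20). Itga1, an integrin subunit that Sema7a can engage, was at 1.45 and 13.2 CPM (2.53), the GTPase gene Rnd2 at 2.46 and 10.9 CPM (1.79) and the plexin-A partner gene Farp1 at 26.7 and 91.5 CPM (1.74), with Dpysl2 at 1.17. The receptor kinase genes Mst1r (10.1 and 2.45 CPM, -1.69) and Erbb2 (37.0 and 16.1 CPM, -1.15), partners of B-type plexins, and Sh3bp1 (30.8 and 10.1 CPM, -1.53) were higher in Epcam-positive cells.

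Of 10 growth factors and receptors that work with neuropilins, 6 were measured and 2 (33.3%) passed 2-fold on each side. Of all measured genes, 15.3% did so toward the Epcam-negative and 12.9% toward the Epcam-positive side, and so short a list cannot be told from these shares. Flt1, a VEGF receptor, was at 2.78 and 20.8 CPM (ratio 2.53) and the ligand gene Vegfc at 12.8 and 57.03 CPM (2.08). The ligand genes Pgf (90.9 and 20.5 CPM, -2.09) and Pdgfb (56.8 and 9.78 CPM, -2.42) were higher in Epcam-positive cells, and Vegfa was at 23.1 and 25.4 CPM (0.13). Of 19 ligands and receptors of the netrin, Slit and related guidance systems, 8 were measured, with a median of 1.62. In this small list 4 (50%) were higher in Epcam-negative cells, beside 15.3% of all measured genes, and none in Epcam-positive cells, beside 12.9%. They were the ligand genes Ntn1 (33 and 5795 reads, 4.56), Slit3 (1.57 and 44.8 CPM, 4.16) and Slit2 (15.4 and 94.5 CPM, 2.54) and the netrin receptor gene Unc5b (15.9 and 116.6 CPM, 2.80).

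Some markers of other cell types also differed between the 2 populations. Of 6 dermal fibroblast markers, 5 were measured. Pdgfra, Dpt, Lum and Crabp1 passed 2-fold toward the Epcam-negative side (80%, beside 15.3% of all measured genes). Cd34 lay the other way, at 304.3 and 207.6 CPM (ratio -0.55). The fibroblast list summed to 321 and 886 CPM. The sum per cell ran from 0 to 1715 CPM (median 180.6) in Epcam-positive and from 0 to 7484 CPM (median 485) in Epcam-negative cells. Of 6 pericyte markers, only Rgs5 and Cspg4 were measured. Both passed 2-fold toward the Epcam-negative side, beside 15.3% of all measured genes. The pericyte list summed to 20.9 and 62.3 CPM, and Rgs5 was present in 1.52% of Epcam-negative cells. Pi16 of the fibroblast list and Rgs5, Kcnj8, Abcc9 and Higd1b of the pericyte list had no read in Epcam-positive cells. The pericyte sum per cell ran from 0 to 194.4 and from 0 to 8598 CPM. Their part in the higher Nrp1, Nrp2, Sema3a, Sema3d and Epha3 levels was not tested. On the other side, 3 of 8 Schwann cell and neural crest markers and 1 of 8 endothelial markers were measured. All of these (Mbp, Ngfr, Erbb3 and Pecam1) passed 2-fold toward the Epcam-positive side, beside 12.9% of all measured genes. So few genes, here and in the pericyte list, cannot be told from such shares. The list sums were 54.4 and 13.2 CPM and 15.7 and 5.56 CPM. The part of these markers was not tested either. The immune list summed to 25.5 and 20.7 CPM. Ptprc, the pan-leukocyte marker, was at 0 and 0.0932 CPM, the endothelial genes Tek and Emcn and the Schwann cell regulator Sox10 had no read in either population, and the melanocyte and erythroid lists summed to at most 8.50 and 1.65 CPM.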

How the data were processed

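The authors deposited unnormalized counts of reads per gene for 383 wells of 1 plate. Per the submitters' processing notes, cutadapt 1.13, STAR 2.5.2b, HTSeq 0.6.0 and the build GRCm38 were used; for the annotation release and strand setting, the sources used here give nothing. Symbols, positions and exon lengths came from GENCODE vM21, which named 49326 of 49585 genes, and promoters from RefSeq. A cell was kept with at least 100000 gene reads and 2000 genes, at most 20% mitochondrial reads and at most 50% spike-in reads. Pooled CPM, log2 ratios with 1 CPM added, exact 95% Poisson, conditional binomial and Clopper-Pearson intervals and shares after thinning to 100000 reads were computed in Python 3.11.15 with numpy 2.4.6, pandas 2.3.3 and scipy 1.17.1, and TMM factors with edgeR 4.0.16 in R 4.3.3. Reads carry no molecular identifiers, so intervals and floors of 3 reads cover counting error only. The ratios and intervals were also run on simulated pooled counts with known folds. These had Poisson noise only, so the run does not speak to variation between cells. Doublets were gated out in the sort, per the labels, and no caller was run.

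All measured members are given with their values, and the others by count and range. Values per cell are given for members with 50 CPM or more and a 4-fold ratio and for the leading members per kb of a class, with Efna5, Efnb1 and Efnb2 set beside their relatives; for the partner lists, up to 4 genes in each direction with the largest ratio are named, and Abl1, Dpysl2, Vegfa, Snai1 and Zeb1 were added after their values were seen. The members and lists were chosen with earlier results of these data known. Alternatives were other cell filters, scalings, pseudocounts, minimums, presence rules and plate columns. One part of the mice's genotype is not reported here.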

Additional observations from a re-analysis of the deposited data

Results flagged for a closer look

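The Epcam-positive well labelled as holding 0 cells, which entered no comparison, had 99241 gene reads and 80 reads in 22 members, against 4018 gene reads and 1 member read in the Epcam-negative well labelled as holding 0 cells. Efna1 (12 reads), Sema3c (11 reads), Epha2 (9 reads), Nrp2 (7 reads) and Efnb2 (7 reads) led in it, and it held 69 Epcam reads and 896 Krt14 reads, which goes against its label.

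The Epcam-negative well of 50 cells, also outside the comparisons, had reads in 27 members among 154897 gene reads, with a summed member level of 1143 CPM. The 0-cell wells gave 806 CPM, in the well that goes against its label, and 248.9 CPM, from 1 read. Neither serves as a background level. Nrp2 (23 reads, 148.5 CPM), Sema3d (20 reads, 129.1 CPM), Efna5 (18 reads, 116.2 CPM) and Sema3a (16 reads, 103.3 CPM) led in the 50-cell well. It held 10 reads of Nrp1, 6 of Efna1 and none of Epcam.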

How the results depend on the processing

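Of the 15 members past 2-fold, between 12 and 15 stayed past it in the same direction under each of the 13 alternatives, and no called ratio changed sign. The count of 8 higher in Epcam-negative cells ran from 6 (spike-in scaling) to 12 (minimum of 1 CPM or none). The count of 7 higher in Epcam-positive cells ran from 5 (10 CPM added) to 9 (spike-in scaling), and was 12 with a minimum of 1 CPM and 12 with none, where low genes such as Efna3 and Ephb1 enter. Sema4b was under 2-fold in 6 alternatives and Plxna2 in 3. The median ratio of -0.22 was -0.086 with TMM, -0.107 with median-of-ratios, -0.58 with spike-in scaling, 0 with no minimum, -0.081 in plate columns 1 to 12, -0.080 in columns 13 to 24 and -0.041 without the top cell of each gene; the cause was not tested. TMM, median-of-ratios and spike-in scaling moved the median of all genes by 0.14, 0.12 and -0.37. Shares of cells depend on the presence rule: Sema3a in Epcam-negative cells went from 25.5% to 48.3% at 1 thinned read and 10.6% at 20, and to 26.2% with a second thinning. Depth limits the members with under 3 reads in a population, and 1 plate with unnamed animals limits every comparison.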
